A study of Mus musculus and Acomys cahirinus with 16 samples.

Results

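The circadian clock genes of the skin were followed here: 10 genes taken by symbol, namely Bmal1 (named Arntl in the spiny mouse table), Clock, Per1, Per2, Per3, Cry1, Nr1d1, Nr1d2, Dbp and Tef. Each was found once among the 56980 genes of the mouse table and once among the 19818 genes of the spiny mouse table. All 10 passed the low-count filter in both species. Polyadenylated RNA was sequenced from 16 skin samples of 2 rodents, Mus musculus and the spiny mouse Acomys cahirinus. There were 4 samples in each of 4 groups: untreated mouse skin, DMBA/TPA-treated mouse skin, untreated spiny mouse skin and DMBA/TPA-treated spiny mouse skin. DMBA (dimethylbenz[a]anthracene) is a carcinogen and TPA (tetradecanoylphorbol acetate) is a phorbol ester that promotes tumours, and the series title sets the study's question as the resistance of spiny mice to skin carcinogenesis by this pair. The controls are labelled untreated, not vehicle-treated. Strain, age, sex, body site, vehicle, dose, length of treatment and hour of sampling are not given in the sources used here. The sample labels were followed, although the series' own design note speaks of irradiated fibroblasts. The labels do not state that replicates came from separate animals, so the p-values measure the spread between these samples only, which may be technical.

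The clock is a loop of transcription that runs in nearly every cell. CLOCK and BMAL1 pair up and bind E-box sequences of the Per, Cry, Nr1d, Dbp and Tef genes, and PER and CRY proteins then gather and shut that pair off. The nuclear receptors NR1D1 and NR1D2 (REV-ERB alpha and beta) repress Bmal1 at RORE sequences where ROR receptors activate it, and DBP, TEF and HLF drive D-box sequences that NFIL3 represses. Bmal1 therefore peaks far from Dbp and Nr1d1 in the daily cycle. In skin the clock is known to run in epidermis, dermis and hair follicles, and to gate cell division and the hair cycle.

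Mouse promoter sequences that carry the letters of these 3 elements are shown because they are the points at which the genes below feed on each other. They come from RefSeq (build GRCm38.p6), which gave windows from 250 bases before to 50 bases after the gene start for 9 of the 10 clock genes. Both strands were searched for the E-box CACGTG, for the D-box TTANGTAA and for the RORE. The E-box stood in 7.15% of all 32851 windows of this length, the D-box in 2.32% and the RORE in 0.384%. Capitals mark the matches, which do not overlap each other, and each sequence reads 5′ to 3′ on the strand of the gene. The D-box was matched in 1 of the 9, Per3, whose 250 bases before the start (chr4:151044666-151044915, minus strand) hold it in 2 copies.
Per3: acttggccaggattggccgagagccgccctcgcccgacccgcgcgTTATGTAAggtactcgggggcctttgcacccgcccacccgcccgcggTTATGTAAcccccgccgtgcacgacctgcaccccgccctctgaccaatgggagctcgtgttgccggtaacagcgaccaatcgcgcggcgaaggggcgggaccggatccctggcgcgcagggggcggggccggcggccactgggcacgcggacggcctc
The E-box was matched in 3 of the 9, namely Per1, Cry1 and Tef. The bases before the start of Cry1 (chr10:85185055-85185304, minus strand) and of Tef (chr15:81811164-81811413, plus strand) are given.
Cry1: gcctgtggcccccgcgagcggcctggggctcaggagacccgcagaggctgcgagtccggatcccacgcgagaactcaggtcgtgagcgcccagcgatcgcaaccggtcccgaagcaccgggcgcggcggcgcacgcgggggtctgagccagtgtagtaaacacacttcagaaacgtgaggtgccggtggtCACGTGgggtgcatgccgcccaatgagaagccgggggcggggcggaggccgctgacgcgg
Tef: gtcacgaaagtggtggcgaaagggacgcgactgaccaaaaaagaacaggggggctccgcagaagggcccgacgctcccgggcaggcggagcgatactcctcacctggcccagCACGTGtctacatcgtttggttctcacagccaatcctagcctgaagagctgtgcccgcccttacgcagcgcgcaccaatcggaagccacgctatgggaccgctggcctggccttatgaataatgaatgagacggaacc
Of the wider list of 32 clock genes used below, 25 had a window. The E-box was matched in 5 of these 25, the D-box in 2 and the RORE in 0. Ciart from that list, a repressor of the CLOCK-BMAL1 pair, held 3 copies of the E-box (chr3:95882229-95882478, minus strand).
Ciart: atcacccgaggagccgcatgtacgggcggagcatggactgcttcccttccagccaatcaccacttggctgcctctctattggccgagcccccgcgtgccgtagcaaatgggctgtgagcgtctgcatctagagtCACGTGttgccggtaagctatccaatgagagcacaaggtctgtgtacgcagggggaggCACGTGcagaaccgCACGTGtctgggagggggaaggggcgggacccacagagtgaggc
The RORE was matched in 1 of the 9, Bmal1, beginning 26 bases after its second listed start (30 bases around it, chr7:113207528-113207557, plus strand).
Bmal1: ggaaggcagAAAGTAGGTCAgggacggagg
Such a match is a string of letters and was not measured as a bound site. A window without one shows only that these letters were absent from it.

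Mouse samples held between 19608787 and 30198281 counts and spiny mouse samples between 21143918 and 30561256. Levels below are CPM (the counts of a gene relative to the library total, with trimmed-mean or TMM scaling), and 3 counts correspond to between 0.0982 and 0.153 CPM. The labelled tissue was checked by the keratins Krt5 and Krt14, whose group means were 2987 and 2129 CPM in untreated mouse and 4445 and 2246 CPM in untreated spiny mouse. Marker genes of several cell types differed between treated and untreated skin in both species. The summed level of 10 skeletal muscle genes was 13890 to 19554 CPM in untreated and 3153 to 4195 CPM in treated mouse skin, and 19346 to 23902 against 6333 to 13119 CPM in spiny mouse skin. Genes of the growing (anagen) hair follicle summed to 18119 to 19119 CPM in treated mouse skin. In untreated mouse skin they summed to 32.0, 49.1 and 33.9 CPM in replicates 1, 3 and 4 and to 1856 CPM in replicate 2, which thereby stood apart from its group. That sample also had the highest muscle sum of its group, 19554 CPM, and the lowest sums of adipocyte (285 CPM), keratinocyte (8420 CPM) and leukocyte (142 CPM) genes. Its column name alone carries a further suffix whose meaning is not stated. The untreated columns of both species bear a code other than their library names, and were matched to the labels through the letter of the species and the number. For spiny mouse the follicle sum covers 9 genes, as Krt85 was not measured there, and was 976 to 10536 CPM untreated and 181 to 2638 CPM treated. In bulk tissue, fewer cells of a type and less RNA per cell cannot be told apart.

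In mouse skin Dbp, Tef, Nr1d1, Nr1d2, Per2 and Per3 were lower after DMBA/TPA, with Dbp 3.14-fold, Nr1d1 2.44-fold and Per3 3.41-fold below the untreated group. Cry1 was 1.68-fold higher, and Bmal1, Clock and Per1 did not pass the test. In spiny mouse skin Dbp, Tef, Nr1d1, Nr1d2 and Per3 were lower: Dbp was 2.36-fold, Nr1d1 1.83-fold and Per3 1.46-fold below untreated. Clock was 1.28-fold higher there and Cry1, Per1, Per2 and Bmal1 did not pass the test. By edgeR's quasi-likelihood test with Benjamini-Hochberg adjustment over all genes at 0.05, 7 of the 10 clock genes were called in mouse, 1 higher and 6 lower. Of the 19740 mouse genes in the test 61.2% passed it, 25.9% higher and 35.3% lower. In spiny mouse 6 of the 10 were called, 1 higher and 5 lower, against 55.1% of all 14833 genes tested, 28.2% higher and 26.9% lower. The shares called in either direction lie near those of all genes. The clock genes leaned downward, with a median log2 fold change of -1.10 in mouse against -0.15 over all genes tested, and of -0.41 in spiny mouse against -0.01. The ranges of the treated and the untreated group were apart for 7 clock genes in mouse (1 higher, 6 lower), against 58.6% of all genes (26.6% higher, 32% lower). They were apart for 6 in spiny mouse (1 higher, 5 lower), against 50.9% of all genes (26.7% higher, 24.1% lower).

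**Figure D1:**
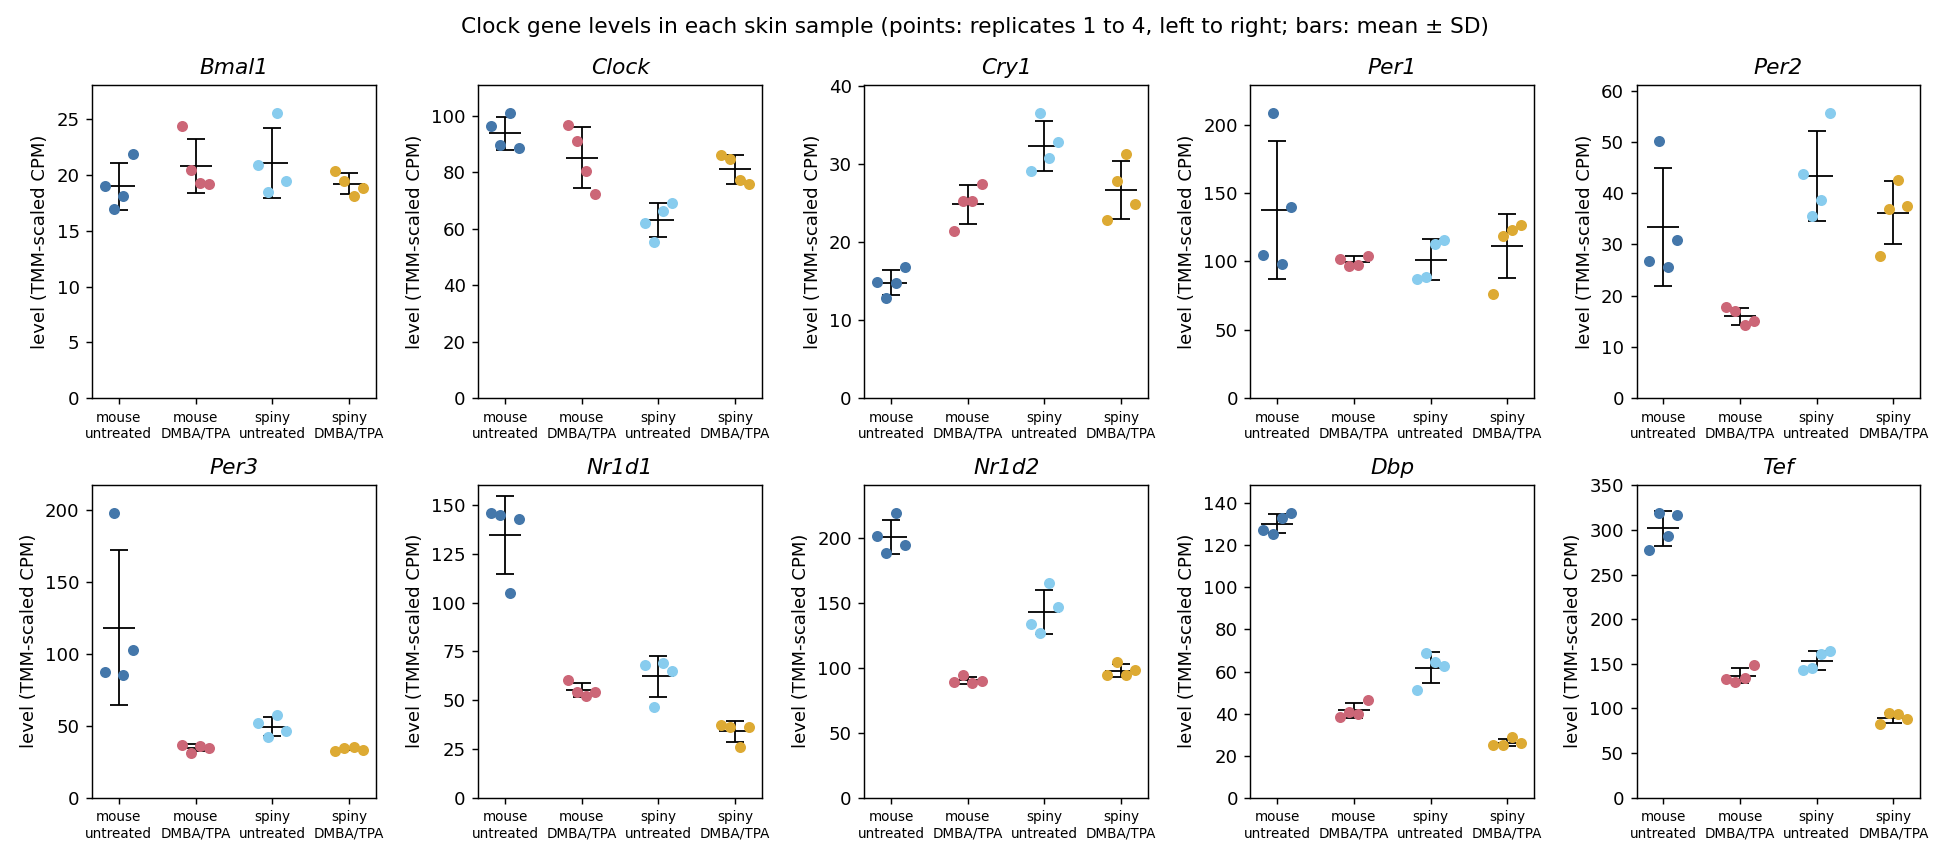
Level of each clock gene in each of the 16 skin samples, on a linear axis of TMM-scaled CPM from 0, with points for replicates 1 to 4 of each group and bars for mean ± SD (n = 4). Dbp lies between 125 and 135 CPM in untreated and between 38.4 and 46.6 CPM in treated mouse skin, while the treated and untreated ranges of Bmal1 overlap in both species.

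Dbp encodes a D-box activator and is among the genes with the widest daily swing. Its levels in replicates 1 to 4 were 127, 125, 133 and 135 CPM in untreated mouse skin and 38.4, 40.9, 40.05 and 46.6 CPM in treated mouse skin. The spiny mouse values were 51.3, 68.6, 64.7 and 62.4 CPM untreated and 25.2, 24.9, 28.7 and 25.8 CPM treated. In both species every treated sample was below every untreated sample, and the lowest untreated spiny mouse sample was replicate 1. Its log2 fold change was -1.65 (SE 0.0943, adjusted p = 4.72e-06) in mouse and -1.24 (SE 0.0991, adjusted p = 2.52e-05) in spiny mouse. Dbp (GRCm39 chr7:45354512-45359627, plus strand) shares 18% of its exon bases in mouse and 21.8% in spiny mouse with Sphk2 on the opposite strand. The counting command in the file headers sets no option for strand or for reads overlapping several genes. Reads overlapping both genes were thus counted for neither, and the level of Dbp may be too low to that extent.

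Tef encodes a second D-box activator, with a shallower daily swing. Mouse skin held 277, 319, 294 and 317 CPM untreated and 133, 129, 134 and 149 CPM treated. Spiny mouse skin held 144, 145, 161 and 164 CPM untreated and 82.1, 94.5, 93.6 and 88.6 CPM treated. The groups did not overlap in either species, and the 4 treated samples lay within 129 to 149 CPM in mouse and within 82.1 to 94.5 CPM in spiny mouse. Tef changed by a log2 fold of -1.14 in mouse (SE 0.109, adjusted p = 4.43e-05) and -0.77 in spiny mouse (SE 0.0717, adjusted p = 4.62e-05).

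Nr1d1 encodes the REV-ERB alpha repressor of Bmal1. Its levels were 146, 145, 105 and 143 CPM in untreated and 60.2, 54.0, 52.3 and 54.0 CPM in treated mouse skin. Spiny mouse skin had 68.0, 46.5, 69.1 and 65.0 CPM untreated and 37.2, 36.4, 25.98 and 36.3 CPM treated. The groups stayed apart in both species, with untreated mouse replicate 3 and treated spiny mouse replicate 3 low within their groups. Nr1d1 had a log2 fold change of -1.29 (SE 0.126, adjusted p = 5.03e-05) in mouse and -0.87 (SE 0.154, adjusted p = 0.00127) in spiny mouse. Its exons overlap Thra on the opposite strand over 8.5% of their bases in mouse and 9.4% in spiny mouse. Nr1d2, the REV-ERB beta gene, was at 202, 189, 219 and 195 CPM in untreated and 89.2, 94.5, 88.8 and 89.7 CPM in treated mouse skin. Spiny mouse Nr1d2 was at 134, 127, 165 and 147 CPM untreated and 94.4, 105, 94.5 and 98.5 CPM treated. The groups were again apart in both species, and the treated samples were close to each other. Nr1d2 had a log2 fold change of -1.15 in mouse (SE 0.0948, adjusted p = 2.13e-05) and -0.55 in spiny mouse (SE 0.0868, adjusted p = 0.000709).

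The 3 Period genes encode the repressor subunits that pair with the cryptochromes, and they did not move alike. Per3 was at 87.3, 198, 85.5 and 103 CPM in untreated and 36.9, 31.3, 35.8 and 34.9 CPM in treated mouse skin. Spiny mouse Per3 was at 51.7, 42.0, 57.6 and 46.8 CPM untreated and 32.7, 34.5, 35.0 and 33.5 CPM treated. Untreated mouse replicate 2 stood far above its group, and treated samples were below all untreated samples in both species. For Per3 the log2 fold change was -1.77 in mouse (SE 0.262, adjusted p = 0.000457) and -0.54 in spiny mouse (SE 0.0970, adjusted p = 0.00135). Without untreated replicate 2 it was -1.32 in mouse (adjusted p = 3.44e-07), and over the 17 alternative fits the adjusted p ran from 1.2e-08 to 0.00403.

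Per2, whose protein is a rate-limiting part of the repressor complex, was at 26.8, 50.3, 25.5 and 30.9 CPM in untreated and 17.7, 17.0, 14.2 and 14.999 CPM in treated mouse skin. Its spiny mouse levels were 43.7, 35.5, 38.7 and 55.6 CPM untreated and 27.7, 37.0, 42.5 and 37.5 CPM treated. The mouse groups were apart, again with replicate 2 highest among the untreated, and the spiny mouse groups overlapped. The log2 fold change of Per2 was -1.06 in mouse (SE 0.214, adjusted p = 0.00238), or -0.71 without untreated replicate 2 (adjusted p = 0.000184, with a range of 2.96e-05 to 0.0138 over the alternative fits). In spiny mouse it was -0.26 (SE 0.163, adjusted p = 0.200), which did not pass the test.

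Per1, which also responds quickly to glucocorticoid and other acute signals, was at 105, 208, 98.2 and 140 CPM in untreated and 102, 96.4, 97.1 and 104 CPM in treated mouse skin. Its levels in spiny mouse skin were 87.3, 88.9, 113 and 116 CPM untreated and 76.3, 119, 123 and 127 CPM treated. The groups overlapped in both species. The log2 fold change was -0.46 in mouse (SE 0.220, adjusted p = 0.0939) and 0.14 in spiny mouse (SE 0.165, adjusted p = 0.504). In treated spiny mouse replicate 1, where Per1 was lowest, the other 6 genes of a glucocorticoid response list summed to 444 CPM. That sum was 652 to 677 CPM in the other 3 samples. Tsc22d3, among these 6 genes, was at 88.3 CPM in replicate 1 and at least 213 CPM in the others. Untreated mouse replicate 2, where Per1 was highest at 208 CPM, had the lowest sum of its group, 735 CPM. Replicates 1, 3 and 4 of that group had 753, 790 and 754 CPM. In untreated spiny mouse skin replicate 1 was lowest in both Per1 and the sum, and in treated mouse skin replicate 4 was highest in both. Of the 7 genes of that list, Per1 included, 1 was called higher and 4 lower in mouse, and 3 lower in spiny mouse. Of all genes tested, 61.2% were called in mouse and 55.1% in spiny mouse. The part of glucocorticoid input in the Per1 levels was not tested.

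Cry1 encodes the strongest repressor of the CLOCK-BMAL1 pair, and its transcript peaks late in the cycle. In mouse skin it was at 14.8, 12.8, 14.7 and 16.8 CPM untreated and 21.4, 25.3, 25.2 and 27.4 CPM treated. Untreated spiny mouse skin had Cry1 at 29.2, 36.5, 30.8 and 32.8 CPM and treated skin at 22.8, 27.8, 31.3 and 24.9 CPM. Every treated mouse sample was above every untreated one, whereas in spiny mouse the treated replicate 3 lay within the untreated range. For Cry1 it amounted to a log2 fold change of 0.75 in mouse (SE 0.120, adjusted p = 0.00072) and -0.27 in spiny mouse (SE 0.112, adjusted p = 0.0636). The spiny mouse value passed 0.05 in 4 of the 17 alternative fits. These were upper-quartile scaling, the DESeq2 test, and the fits without untreated replicate 1 (-0.33, adjusted p = 0.0490) and without treated replicate 3 (-0.36, adjusted p = 0.0223). Its adjusted p ran from 0.0223 to 0.158 over the alternative fits.

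Of the activators, Bmal1 was at 19.0, 17.0, 18.1 and 21.9 CPM in untreated and 24.4, 20.4, 19.2 and 19.2 CPM in treated mouse skin. Spiny mouse Bmal1 was at 20.9, 18.4, 25.5 and 19.5 CPM untreated and 20.4, 19.5, 18.2 and 18.8 CPM treated. The groups overlapped in both species. Its log2 fold change was 0.13 in mouse (SE 0.123, adjusted p = 0.372) and -0.14 in spiny mouse (SE 0.106, adjusted p = 0.303), and the mouse value was -0.07 with upper-quartile scaling and -0.11 with library size alone, with an adjusted p of 0.136 to 0.635 over the alternative fits. Clock, the partner of Bmal1 and a gene of weak daily swing, was at 96.4, 89.8, 101 and 88.6 CPM in untreated and 96.8, 91.3, 80.6 and 72.4 CPM in treated mouse skin. Spiny mouse Clock was at 61.9, 55.4, 66.5 and 69.2 CPM untreated and 86.2, 84.9, 77.5 and 75.8 CPM treated, with no overlap. The log2 fold change of Clock was 0.36 in spiny mouse (SE 0.0814, adjusted p = 0.00481). In mouse it was -0.14 (SE 0.112, adjusted p = 0.299), and the value crossed to 0.007 with no low-count filter.

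**Figure D2:**
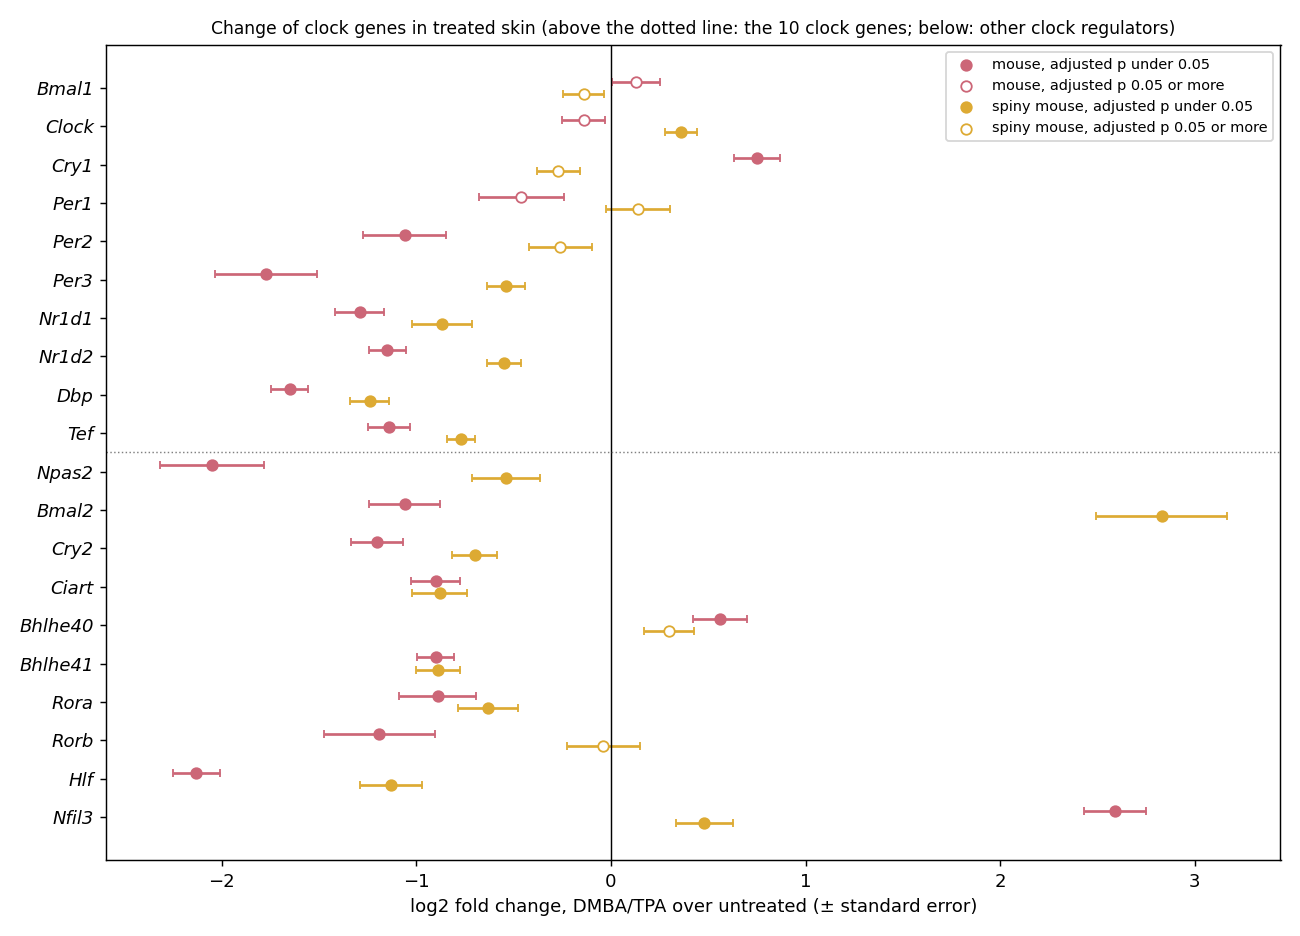
Log2 fold change, DMBA/TPA over untreated, with its standard error, for the 10 clock genes (above the dotted line) and 10 other clock regulators (below it), in mouse and spiny mouse. Filled points passed an adjusted p of 0.05. Dbp, Tef, Nr1d1 and Nr1d2 are below 0 in both species with the mouse value further out, and Cry1 lies at 0.75 in mouse and -0.27 in spiny mouse.

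The difference of the change between mouse and spiny mouse was tested with an interaction term of edgeR's quasi-likelihood fit, for the 13658 symbols that both tables share and that passed the filter in both. A positive value means a higher log2 fold change in spiny mouse. The difference passed the test for 7 of the 10 clock genes (6 higher, 1 lower), against 46.1% of all symbols tested (21.4% higher, 24.7% lower). The median over the 10 was 0.46 against -0.03 over all symbols. Cry1 had the lowest adjusted p of the 10, with a difference of -1.02 (SE 0.163, adjusted p = 0.000137). The difference was 1.23 for Per3 (SE 0.292, adjusted p = 0.0031), 0.80 for Per2 (SE 0.283, adjusted p = 0.03) and 0.60 for Nr1d2 (SE 0.120, adjusted p = 0.000822). Clock differed by 0.50 (SE 0.137, adjusted p = 0.00761), Dbp by 0.41 (SE 0.128, adjusted p = 0.0156) and Tef by 0.37 (SE 0.116, adjusted p = 0.0165). The difference did not pass the test for Nr1d1 (0.42, SE 0.202, adjusted p = 0.104), Per1 (0.60, SE 0.293, adjusted p = 0.106) or Bmal1 (-0.27, SE 0.162, adjusted p = 0.191).

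The Cry1, Clock, Per3 and Nr1d2 differences passed the test in each of the 25 alternative fits. The differences of Per2, Dbp and Tef did not hold in all of them. Without untreated mouse replicate 2, which had the high Period levels, the difference was 0.45 for Per2 (adjusted p = 0.0887) and 0.25 for Tef (adjusted p = 0.0573), and that of Per3 was 0.77 (adjusted p = 0.000245). Without treated mouse replicate 2, 4 of the 10 genes were called, and the difference was 0.75 for Per2 (adjusted p = 0.0709), 0.31 for Dbp (adjusted p = 0.0824) and 0.25 for Tef (adjusted p = 0.127). The Per2 difference also missed 0.05 without treated mouse replicate 3 (0.72) or 4 (0.75), without untreated spiny mouse replicate 2 (0.72) or 3 (0.75), and without treated spiny mouse replicate 3 (0.72). The Dbp difference missed it without untreated mouse replicate 3 (0.34, adjusted p = 0.0523). Nr1d1 passed without treated spiny mouse replicate 3 (0.53, adjusted p = 0.0335), and Per1 passed without treated spiny mouse replicate 1 (0.75, adjusted p = 0.0388). Over the 25 fits the adjusted p of the difference ran from 0.0123 to 0.0887 for Per2, from 0.00218 to 0.104 for Dbp and from 0.00245 to 0.132 for Tef. It ran from 4.08e-05 to 0.0151 for Per3, from 0.0191 to 0.282 for Nr1d1 and from 0.0388 to 0.380 for Per1.

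Because the hour of sampling is not given, the state of the loop was described within each sample, by the log2 CPM of a gene minus that of Bmal1, which peaks at the other end of the cycle. For Dbp this difference ran from 2.62 to 2.88 in untreated and from 0.65 to 1.28 in treated mouse skin. In spiny mouse skin it ran from 1.29 to 1.89 untreated and from 0.30 to 0.66 treated. The groups did not overlap within either species, and treated skin was shifted by -1.78 (pooled SD 0.201) in mouse and by -1.11 (pooled SD 0.231) in spiny mouse. Nr1d1 minus Bmal1 shifted by -1.41 (pooled SD 0.185) and -0.74 (pooled SD 0.197). Per3 minus Bmal1 shifted by -1.81 (pooled SD 0.479) in mouse, where untreated replicate 2 had the highest value of 3.54, and by -0.41 (pooled SD 0.0890) in spiny mouse. The log2 fold changes of Bmal1 were small beside these shifts, at 0.13 and -0.14. All 3 pairs share Bmal1, and Dbp, Nr1d1 and Per3 were each called lower in both species. The common direction of the pairs in treated skin follows from those calls and is not separate evidence.

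**Figure D3:**
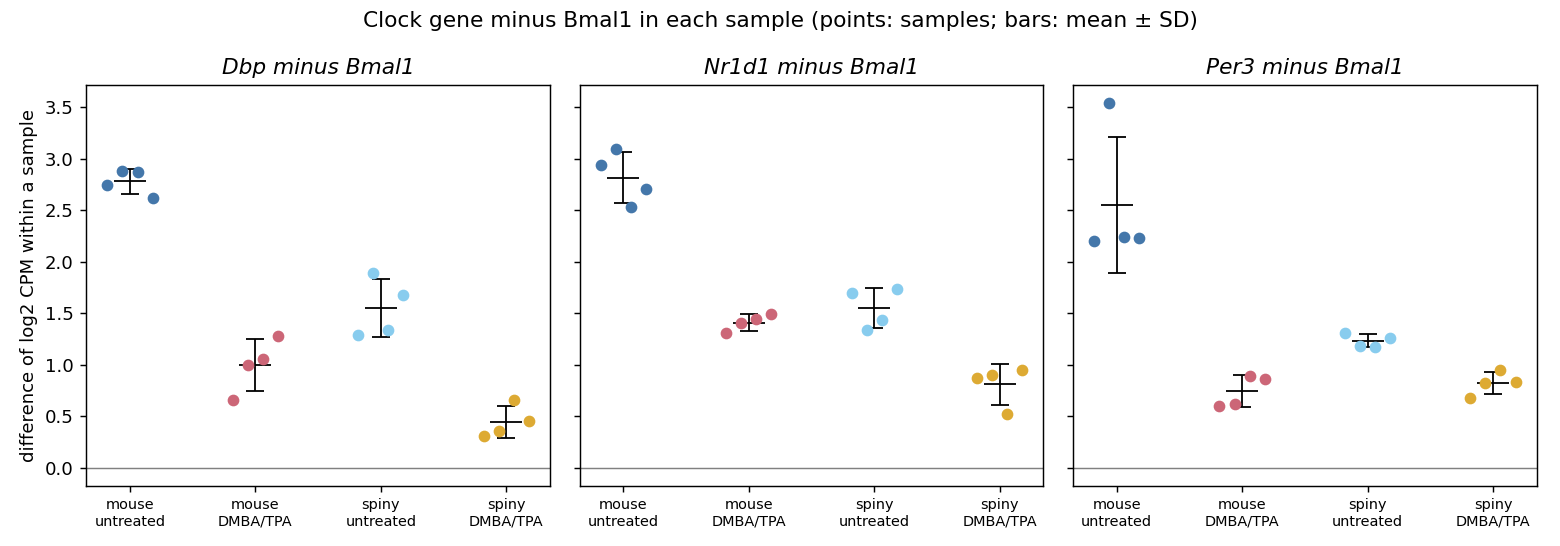
Log2 CPM of Dbp, Nr1d1 and Per3, each minus that of Bmal1 in the same sample, for the 4 groups, with points for samples and bars for mean ± SD (n = 4). In each panel the treated samples sit below the untreated samples of their species, with Dbp minus Bmal1 between 2.62 and 2.88 in untreated and between 0.65 and 1.28 in treated mouse skin.

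Across species these differences can be set side by side only per kilobase of gene, since the Bmal1 gene model is 7523 bases in mouse and 16873 in spiny mouse. On the log2 scale of CPM per kilobase, Dbp minus Bmal1 was 4.11 ± 0.123 (SD, n = 4) in untreated mouse and 4.30 ± 0.285 in untreated spiny mouse skin, and the samples overlapped. Nr1d1 minus Bmal1 was 4.10 ± 0.249 and 4.14 ± 0.198, also overlapping, and Per3 minus Bmal1 was 2.20 ± 0.659 and 2.54 ± 0.063. For Per3 the overlap rested on untreated mouse replicate 2 at 3.19, since the other 3 mouse samples lay between 1.85 and 1.88, below the spiny mouse samples at 2.48 to 2.62. In treated skin the mouse values were lower, at 2.33 ± 0.257 for Dbp against 3.20 ± 0.159 in spiny mouse, 2.70 ± 0.079 for Nr1d1 against 3.40 ± 0.197, and 0.39 ± 0.157 for Per3 against 2.13 ± 0.108, with no overlap. Before division by length the treated values were 0.995 in mouse and 0.442 in spiny mouse for Dbp. They were 1.41 and 0.81 for Nr1d1, and 0.74 and 0.82 for Per3. The untreated values for Dbp were then 2.78 and 1.55. The comparison between species, in untreated and in treated skin, thus rests on the gene lengths used. A change in the hour of the clock, a smaller daily swing and a different mix of cells cannot be told apart from samples without a stated hour.

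The order of the 10 genes by CPM per kilobase was headed by the same 4 genes in untreated skin of both species. In untreated mouse skin these were Nr1d1 (43.8), Dbp (43.5), Tef (38.3) and Nr1d2 (37.2), with Bmal1 last at 2.52. Dbp and Tef lay apart in that order, while Nr1d1 overlapped Dbp and Tef overlapped Nr1d2. Nr1d2 in turn overlapped Per1, the next in order, whose samples ran from 17.4 to 37.0. In untreated spiny mouse skin Nr1d2 (28.1), Dbp (24.7), Tef (22.7) and Nr1d1 (22.2) followed each other with overlapping samples, and Bmal1 was last at 1.25. In treated mouse skin Dbp at 13.9 stood behind Nr1d1, Per1, Tef and Nr1d2, apart from Nr1d2 at 16.7, and Per2 (2.73) and Bmal1 (2.77) overlapped at the bottom. In treated spiny mouse skin Nr1d2 led at 19.2, apart from Tef at 13.3. Dbp, at 10.4, stood behind Tef, Per1 and Nr1d1, and its samples overlapped those of Per1 and Nr1d1.

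Some samples differed from their own group in the Period genes. Untreated mouse replicate 2 deviated from its group mean by 0.66 for Per1, 0.65 for Per2 and 0.83 for Per3 on the log2 scale. In the same sample Dbp deviated by -0.05, Nr1d1 by 0.12 and Bmal1 by -0.15. This is the sample with 1856 CPM of anagen follicle genes and the further suffix to its name, and the part of either in its Period levels was not tested. Treated spiny mouse replicate 1 deviated by -0.51 for Per1 and -0.37 for Per2, and by -0.05 for Per3.

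**Figure D4:**
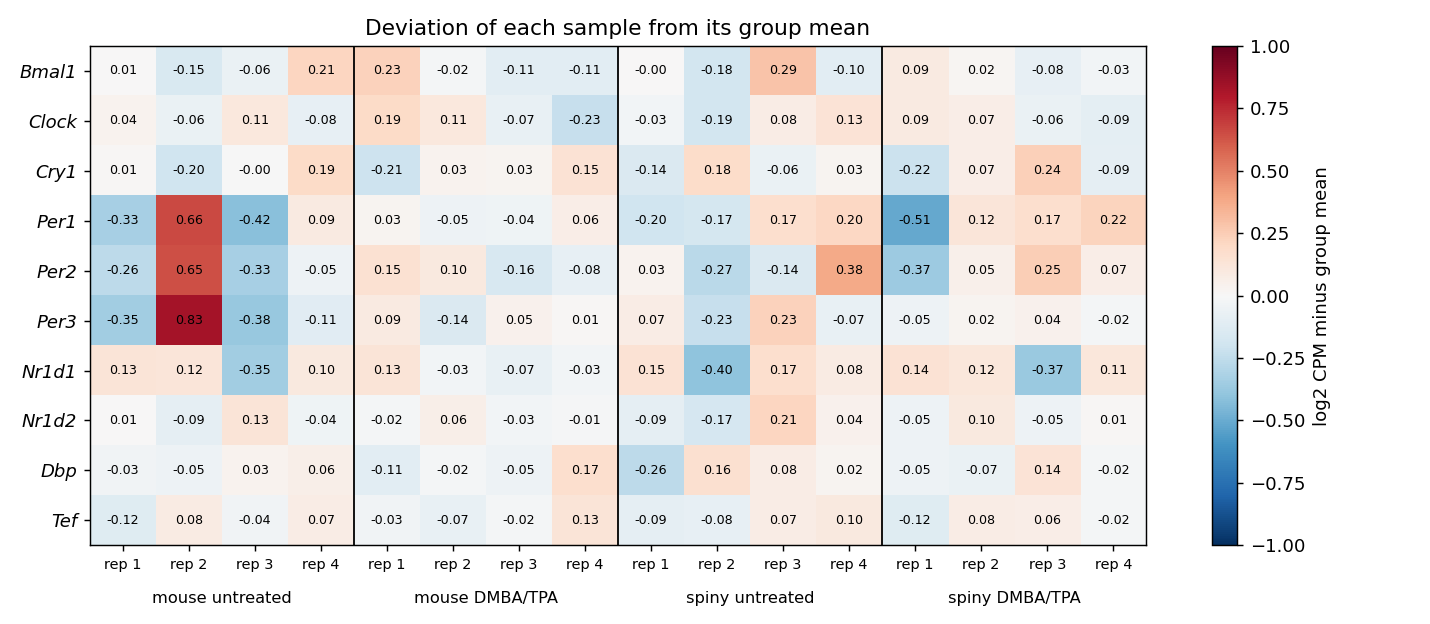
Deviation of each sample from the mean of its group, as log2 CPM, for the 10 clock genes (rows) and 16 samples (columns, in groups of 4), with red above and blue below the group mean. Untreated mouse replicate 2 is high for Per1 (0.66), Per2 (0.65) and Per3 (0.83), and lies between -0.20 and 0.12 for the other 7 genes.

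A wider list of 32 other clock genes was counted as well. In mouse skin 24 of the 32 passed the test (7 higher, 17 lower), against 61.2% of all genes, with a median log2 fold change of -0.48 against -0.15. In spiny mouse skin 21 passed (8 higher, 13 lower), against 55.1% of all genes, with a median of -0.10 against -0.01. The species difference passed for 18 (11 higher, 7 lower), against 46.1% of all symbols, with a median of 0.31 against -0.03. Among D-box factors, Hlf, the third activator beside Dbp and Tef, fell by 2.13 in mouse and by 1.13 in spiny mouse on the log2 scale. Its levels were 86.6, 84.1, 67.4 and 95.2 CPM in untreated and 18.01 to 20.3 CPM in treated mouse skin, and 46.2 to 76.8 against 23.5 to 30.8 CPM in spiny mouse skin. Nfil3, which represses at the D-box, went the other way. It was at 8.18, 10.9, 7.33 and 6.56 CPM in untreated and 47.3, 46.8, 51.7 and 53.2 CPM in treated mouse skin, a log2 fold change of 2.59 (SE 0.159, adjusted p = 6.35e-06). Spiny mouse Nfil3 was at 28.4, 30.1, 23.2 and 22.4 CPM untreated and 27.5, 38.3, 37.5 and 41.9 CPM treated, a log2 fold change of 0.48 (SE 0.145, adjusted p = 0.0192) with overlapping samples. The species difference of Nfil3 was -2.11 (SE 0.219, adjusted p = 3.21e-06).

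Of the other repressors, Cry2 fell by 1.20 and 0.70, Ciart by 0.90 and 0.88, and Bhlhe41 by 0.90 and 0.89 on the log2 scale in mouse and spiny mouse, and all of these passed the test. Bhlhe40 was higher in mouse (0.56, adjusted p = 0.00638), and its value of 0.30 in spiny mouse did not pass (adjusted p = 0.0715). Of the ROR receptors, which activate Bmal1, Rora (-0.89) and Rorb (-1.19) were called lower in mouse. In spiny mouse Rora (-0.63) was called lower and Rorb (-0.04) was not called. Among other activators, Npas2, a substitute for Clock, lay at 4.23 to 5.06 CPM in untreated and 0.71 to 1.63 CPM in treated mouse skin (log2 fold change -2.05, adjusted p = 0.000233). In spiny mouse Npas2 fell by 0.54 on the log2 scale (adjusted p = 0.0245).

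Bmal2, the paralog of Bmal1, moved in opposite directions. It was at 11.3 to 19.6 CPM in untreated and 6.35 to 7.67 CPM in treated mouse skin (log2 fold change -1.06, SE 0.183, adjusted p = 0.00109). In spiny mouse skin it rested on few counts, 18, 7, 7 and 5 in untreated and 71, 72, 51 and 50 in treated samples, or 0.23 to 0.61 against 1.87 to 3.23 CPM. Its log2 fold change there was 2.83 (SE 0.336, adjusted p = 0.000152) and the species difference 3.88 (SE 0.368, adjusted p = 1.47e-06). Among kinases and degradation genes, Csnk1e, a kinase of the PER proteins, rose by 1.20 on the log2 scale in mouse, and its value in spiny mouse was -0.37 (adjusted p = 0.0588). Csnk1d, its close relative, rose by 0.69 and 0.34 in mouse and spiny mouse. Btrc, which marks PER proteins for degradation, fell by 1.28 and 0.64, and Usp2 fell by 0.84 in spiny mouse only, with 0.06 in mouse and a species difference of -0.90 (adjusted p = 0.0018). Of the modulators, Timeless, which also acts in DNA replication, rose by 0.77 and 0.70, Nono rose by 0.75 and 0.35, and Prkaa2, a catalytic subunit of the energy sensor AMPK, fell by 1.95 and 0.91. Among 6 output genes, 4 were called in mouse, all lower, against 61.2% of all genes. In spiny mouse 2 of the 6 were called, 1 higher and 1 lower, against 55.1% of all genes. Nampt, the gene of a nicotinamide salvage enzyme, was lower in both (-0.78 and -0.42), and Por, the gene of the reductase that serves cytochrome P450 enzymes, rose by 0.53 in spiny mouse (adjusted p = 0.000118).

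Marker genes of several cell types also changed in treated skin, some lists lower and some higher. Of all genes tested, 61.2% were called in mouse (25.9% higher, 35.3% lower). In spiny mouse 55.1% were called (28.2% higher, 26.9% lower). All 10 skeletal muscle genes were called lower in mouse (median log2 fold change -2.19) and all 9 tested were called lower in spiny mouse (median -1.15). The alpha-actin of skeletal muscle, Acta1, was at 4128 ± 99.2 CPM (SD, n = 4) in untreated and 1124 ± 177 CPM in treated mouse skin, and at 5009 ± 350 and 2369 ± 746 CPM in spiny mouse skin. Within treated spiny mouse skin the muscle sum was 6333, 13119, 10440 and 8322 CPM in replicates 1 to 4. In the same samples Dbp was at 25.2, 24.9, 28.7 and 25.8 CPM, and Tef at 82.1, 94.5, 93.6 and 88.6 CPM. Anagen follicle genes were called higher for 8 of 10 in mouse and lower for 6 of 9 tested in spiny mouse. The summed level of 6 keratinocyte genes was 8420 to 15111 CPM untreated and 19871 to 28560 CPM treated in mouse, and 13837 to 17869 against 23674 to 30180 CPM in spiny mouse. Krt5, Krt14 and Krt1 were called higher in both species, whereas Krt15 was called lower in both (-2.05 and -1.64), Col17a1 was lower in mouse (-0.89) and higher in spiny mouse (0.39), and Krt10 was called in neither. That of 8 leukocyte genes was 142 to 302 against 955 to 1856 CPM in mouse and 170 to 224 against 2490 to 2784 CPM in spiny mouse. In mouse 3 leukocyte genes were called higher and 3 lower (median -0.05). The mouse sum was carried by S100a8 (9.23 to 716 CPM in group means) and S100a9 (7.203 to 584 CPM), while Ptprc (-1.24), Cd3e (-1.72) and Adgre1 (-0.74) were the 3 called lower. In spiny mouse 6 of the 8 were called higher and 0 lower. There too the treated sum was carried by S100a8 (71.5 to 1681.5 CPM in group means) and S100a9 (7.63 to 649 CPM). All 8 proliferation genes were called higher in both species. For 6 adipocyte genes the sum was 285 to 1821 against 309 to 633 CPM in mouse and 1336 to 1553 against 632 to 912 CPM in spiny mouse. No measured gene of these lists had a group mean of 0, but Mylpf was at 0.096 and 0.030 CPM in untreated and treated spiny mouse skin with some samples at 0, and Krt85 was at 0 in at least 1 untreated mouse sample. The part of tissue makeup in the clock gene levels was not tested.

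**Figure D5:**
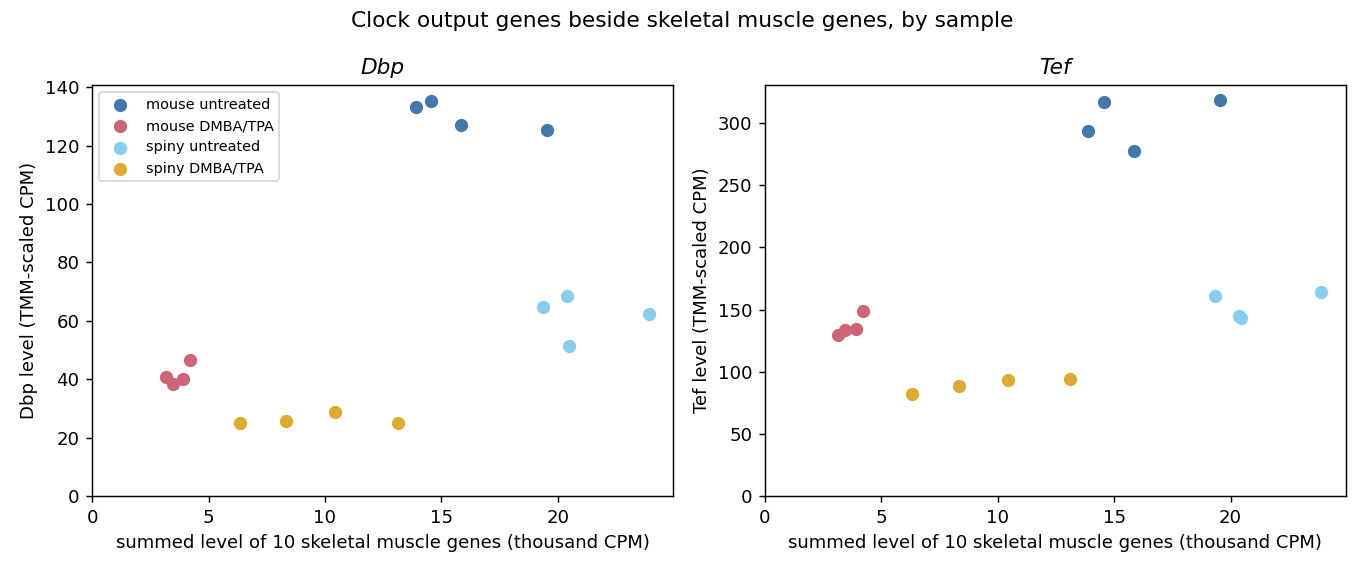
Level of Dbp (left) and Tef (right) against the summed level of 10 skeletal muscle genes, both as TMM-scaled CPM, with 1 point for each of the 16 samples. Treated spiny mouse samples lie between 6333 and 13119 CPM of muscle genes and between 24.9 and 28.7 CPM of Dbp.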

How the data were processed

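Polyadenylated RNA of skin was measured in 16 samples, 4 in each of 4 groups. The authors deposited 1 table of raw fragment counts per gene for each species. Per the file headers, featureCounts 2.0.3 counted read pairs with both ends mapped, with no option for strand, for reads mapping to several places or for reads overlapping several genes, on GRCm39 with Ensembl 108 for mouse and on the AcoCah2 assembly for spiny mouse. Trim Galore and HISAT2 are named per the submitters' processing notes. Per the labels' protocols, the libraries were stranded, but this counting did not use the strand. Reads overlapping genes on opposite strands were thus counted for neither gene. Mouse symbols came from GENCODE M39 by identifier (56236 matched, 744 without a symbol).

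In R 4.3.3, edgeR 4.0.16 was used for the low-count filter (filterByExpr), the TMM scaling and a quasi-likelihood F test, within each species. The interaction used the shared symbols and the effective library sizes of each species' own table. A difference of gene length or annotation drops out of the interaction where it affects both treatment groups equally. Benjamini-Hochberg adjustment ran over all genes tested. The standard error is the log2 fold change divided by the square root of F. Log2 CPM used a prior count of 2. Other settings tried were the size factors of DESeq2 1.42.0, its Wald test, upper-quartile scaling, library size alone, 2 other low-count filters, limma 3.58.1 (voom with sample weights), a robust fit, the replicate number as a block, and each replicate left out. The scripts were tested on simulated data. The level that 3 counts give covers counting error only, as no molecular identifiers are named in the labels or headers. All 10 clock genes were named whatever their result, and 32 other clock genes and the marker lists could be named. A few genes that this rule names are not reported here. Members and lists were chosen with earlier results of these data known. Coordinates of genes are those of the deposited tables, and those of promoters are of the RefSeq build GRCm38.p6, with no conversion between them.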

Additional observations from a re-analysis of the deposited data

Results flagged for a closer look

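In 5 of 40 sets of 4 samples (10 clock genes in 4 groups) 1 sample lay far from the other 3. Chance gives about 1 in 20 such sets. They were Per1 in treated spiny mouse replicate 1 (76.3 CPM), Per3 in untreated mouse replicate 2 (198 CPM), Nr1d1 in untreated mouse replicate 3 (105 CPM), Nr1d1 in treated spiny mouse replicate 3 (25.98 CPM) and Nr1d2 in treated mouse replicate 2 (94.5 CPM). The fold change differed between the species, by the interaction test of edgeR, for Clock (0.50), Per2 (0.80), Per3 (1.23), Cry1 (-1.02), Nr1d2 (0.60), Dbp (0.41) and Tef (0.37), as spiny mouse minus mouse on the log2 scale.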

How the results depend on the processing

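Within each species the called clock genes kept their direction and their call in all 17 alternative fits, Cry1, Dbp, Nr1d1, Nr1d2, Per2, Per3 and Tef in mouse and Clock, Dbp, Nr1d1, Nr1d2, Per3 and Tef in spiny mouse. Mouse Bmal1, which was not called, turned from 0.13 to -0.069 with upper-quartile factors and to -0.105 with library size alone, and mouse Clock from -0.14 to 0.007 with no low-count filter. With upper-quartile factors or library size alone 9 clock genes were called in mouse, Clock and Per1 being added. The median log2 fold change of all mouse genes was -0.35 and -0.38 under these 2 scalings and -0.15 under TMM. In spiny mouse 7 clock genes were called with upper-quartile factors and with the DESeq2 test, Cry1 being added. The number of clock genes whose change differed between species was 7, and it was 4 with DESeq2 size factors and 4 with no low-count filter, where Per2, Dbp and Tef missed 0.05. It rose to 9 with library size alone and to 8 with upper-quartile factors, and was 6 with limma-voom. With 1 replicate left out it ran from 4 to 8. The cause was not tested. Under the scaling by DESeq2 size factors the median difference of all symbols was -0.14 against -0.03 under TMM. The 5 genes most like and the 5 least like Dbp were not stable: 0 of these 10 recurred in mouse alone and 1 in spiny mouse alone. For Bmal1 the counts were 1 and 0.

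The replicate block left the number of called clock genes at 7 in mouse, at 6 in spiny mouse and at 7 for the species difference. Same-numbered samples correlated by 0.009 on average in mouse (-0.008 to 0.023) and by -0.355 in spiny mouse (-0.526 to -0.195), and 0 samples correlated best with their own number, so the numbers were not taken as pairs.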

Other observations

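After each group was centred on its mean, 9776 symbols were compared with Dbp and Bmal1 over the 16 samples by Pearson correlation, as a description. The samples share libraries and depth. The symbols most like Dbp were Galnt15 (0.839), Pck2 (0.838), Nfkbie (0.789), Rhbdd3 (0.769) and Pkp2 (0.762), and among the least like were Nelfa (-0.821), Pla2g4f (-0.814), Flg (-0.813) and Brwd3 (-0.808). The symbols most like Bmal1 were Nbr1 (0.925), Slc11a2 (0.898), Erbb3 (0.895), Scel (0.883) and Ano1 (0.879), and the least like were Cops7b (-0.850), Obsl1 (-0.841), Med27 (-0.834), Cep43 (-0.824) and Arhgef25 (-0.824). None of these is among the clock genes listed. Of the clock genes themselves, Cry1 (0.714) was nearest to Dbp, and Bmal1 stood at -0.209 and Nr1d1 at -0.580.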
